A study of Mus musculus with 15 samples.

Results

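The genes described here are 58 ligands, receptors and modulators of Wnt signalling, of 17454 genes in the deposited expression table. They were chosen by name. They comprise every gene whose symbol is Wnt, Fzd, Rspo, Sfrp, Dkk, Shisa or Axin followed by a digit, together with *Porcn* and *Wls* (secretion), *Lrp5*, *Lrp6*, *Lgr4* and *Lgr5* (receptors), *Znrf3*, *Rnf43*, *Notum* and *Sulf2* (surface and extracellular modulators), and *Apc*, *Gsk3b*, *Ctnnb1*, *Nkd1*, *Gnai1*, *Lef1*, *Tcf7l1* and *Tcf7l2* inside the cell. By role they were 12 ligands, 2 secretion factors, 12 receptors, 7 genes of the R-spondin module, 10 secreted inhibitors or modulators, 5 Shisa genes, 7 intracellular components and 3 nuclear factors.

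Wnt proteins are lipid-modified by Porcn, carried to the surface by Wls and bound by Frizzled receptors with the co-receptors Lrp5 and Lrp6. In the canonical branch, binding stops the complex of Axin, Apc and Gsk3b from marking beta-catenin for destruction, and beta-catenin then acts with Tcf and Lef factors on target genes, while other branches steer cell polarity and calcium. Wnt signalling is known for its part in mesoderm patterning and in the emergence of blood cells from hemogenic endothelium, and *Ezh2* encodes the catalytic subunit of Polycomb repressive complex 2, which places a repressive mark on histone H3 and is known to hold many developmental signalling genes silent.

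RNA sequencing was done on 15 libraries of erythro-myeloid progenitors (EMPs), the first multipotent blood progenitors of the yolk sac, sorted from individual yolk sacs of C57BL/6 mouse embryos at E10.5 (days of gestation). The study set deletion of *Ezh2* in endothelium and its descendants beside deletion in blood cells. Knockout libraries were Tie2-Ezh2-KO (Ezh2fl/fl; Tie2-CreTg/+, n = 5, replicates 7, 9, 11, 13 and 17) and Vav-Ezh2-KO (Ezh2fl/fl; Vav-CreTg/+, n = 5, replicates 1, 9, 10, 26 and 28). Their controls, without Cre, were Tie2-Ezh2-WT (Ezh2fl/fl; Tie2-Cre+/+, n = 3, replicates 4, 10 and 12) and Vav-Ezh2-WT (Ezh2fl/fl; Vav-Cre+/+, n = 2, replicates 4 and 6), so that floxed *Ezh2* alleles are common to all 15 libraries. The controls were pooled as WT (n = 5), and both knockouts were compared with these same 5 libraries.

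Tie2-Cre acts in endothelium and everything derived from it, and Vav-Cre in blood cells once they have formed. The labels give 500 sorted cells a library, a SMARTer amplification, Nextera XT libraries of 16 PCR cycles and single-end reads of 75 bp, and the paper's methods state a smaller number of cells. The labels assign no library to an experiment or sort date. Levels are RPKM (reads scaled to gene length and to the reads on genes of the library). The reads on genes, recovered from the steps between RPKM values, ran from 10407398 to 41025074 a library with a median of 16091836. On a gene of 2 kb, a level of 0.0480 RPKM was 1 read at the lowest depth, and at the highest depth 1 read was 0.0122 RPKM. Reads amplified by PCR are not independent molecules, and floors given in reads cover counting error only. In bulk samples such as these, fewer cells of a type and less RNA per cell cannot be told apart.

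*Ezh2* itself, counted over the whole gene so that the deleted exons were not separated, was at 24.8 to 29.5 RPKM in Tie2-Ezh2-KO, 30.1 to 42.0 RPKM in WT and 33.7 to 42.4 RPKM in Vav-Ezh2-KO. The Tie2-Ezh2-KO libraries were all below WT (log2 change -0.48 ± 0.12 SE, limma adjusted p = 0.0418; exact permutation p = 0.00794, the smallest that the 252 divisions of 5 and 5 libraries allow), a call held in 9 of 21 alternatives (adjusted p from 0.0134 to 0.344). The Vav-Ezh2-KO libraries overlapped WT (log2 change -0.02, limma adjusted p = 0.969).

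The paper sorted EMPs as cells positive for KIT, CD16/32 and CD41 and negative for lineage markers and SCA1. The genes of the positive markers (*Kit*, *Fcgr2b*, *Fcgr3* and *Itga2b*), and *Ptprc* and *Runx1*, which are blood genes outside that gate, were present in all 15 libraries. *Kit* was at 15.2 to 45.8 RPKM, *Itga2b* at 16.7 to 41.7 and *Fcgr2b* at 4.68 to 20.9. *Fcgr3*, the most abundant of the 6, was at 66.9 to 194, *Ptprc* at 2.64 to 13.4 and *Runx1* at 6.54 to 11.3 RPKM. Their sum was 185 to 236 RPKM in WT, 134 to 187 in Tie2-Ezh2-KO and 147 to 303 in Vav-Ezh2-KO. In any comparison limma called 0 of the 6. In Tie2-Ezh2-KO against WT, 0 had a log2 change above 0 (median -0.33). At an unadjusted p under 0.05, 3 were lower there (against 2.75% of genes). Against Vav-Ezh2-KO, 2 were lower unadjusted (against 6.05% of genes), and the median was -0.32.

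A pair of libraries stood apart by RNA of visceral endoderm, the outer epithelium of the yolk sac, summed over 12 marker genes of which *Trf* was the most abundant. Tie2-Ezh2-WT replicate 4 was at a sum of 218 RPKM and Tie2-Ezh2-KO replicate 7 at 322 RPKM. The other WT libraries were at 24.8 and 27.8 (Tie2-Ezh2-WT replicates 10 and 12) and 22.6 and 29.4 RPKM (Vav-Ezh2-WT replicates 4 and 6), the other Tie2-Ezh2-KO libraries at 41.7, 31.0, 27.7 and 39.9 RPKM, and Vav-Ezh2-KO at 21.1, 21.5, 17.4, 24.4 and 14.8 RPKM. *Afp* was at 48.2 and 59.9 RPKM in the libraries that stood apart and at 0.267 to 2.44 RPKM elsewhere, while *Foxa2* was at 0 in 14 of 15 libraries. Of 11 markers tested, *Amn* was higher in Tie2-Ezh2-KO than in WT (log2 change 3.01, limma adjusted p = 0.00155). Calls of members against WT and on the difference between the knockout effects are also given without both libraries.

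Primitive erythroid RNA (8 genes, *Hbb-bh1* the most abundant) moved with the Tie2-Ezh2-KO group. Its summed level was 151, 133 and 149 RPKM in Tie2-Ezh2-WT, 72.7 and 123 in Vav-Ezh2-WT, 323, 590, 869, 202 and 294 in Tie2-Ezh2-KO, and 89.3, 131, 66.1, 161 and 158 RPKM in Vav-Ezh2-KO. *Hba-x* and *Hbb-bh1* passed the limma test in Tie2-Ezh2-KO against both WT and Vav-Ezh2-KO. *Hba-x* also passed on the difference between the knockout effects (6.41 ± 1.24 SE, limma adjusted p = 0.0457), as did 0.181% of all genes. The gate asks for KIT and CD41, and the paper's antibody list for sorting holds TER119 and F4/80, which mark erythroid cells and macrophages. The purity of the sorted cells was not tested. The part of erythroid or endoderm RNA in the levels of Wnt genes was not tested, apart from the fits without the 2 libraries named above. Endothelial RNA (11 genes, *Egfl7* the most abundant) summed to 158 to 190 RPKM in WT, 163 to 188 in Tie2-Ezh2-KO and 141 to 182 in Vav-Ezh2-KO, with *Cdh5* at 0.349 RPKM or less. Mesenchymal RNA (12 genes, *Pdgfrb* the most abundant) summed to 1.38 to 3.94 RPKM over all libraries, with *Pdgfra* at 0.00526 RPKM or less, and limma called 0 genes of either list in Tie2-Ezh2-KO against WT (2 endothelial genes higher and 1 lower at an unadjusted p under 0.05, and 0 mesenchymal genes). Of the 11 endothelial genes 9 had a log2 change above 0, with a median of 0.33. In Tie2-Ezh2-KO against Vav-Ezh2-KO it also called 0 of either list, but 5 of 11 endothelial genes were higher and 1 lower at an unadjusted p under 0.05, with a median log2 change of 0.43, and 0 mesenchymal genes. Visceral endoderm genes in that comparison had a median of 1.59, with *Amn* called and 4 of 11 higher and 0 lower unadjusted. Their part in the differences of Wnt genes between the knockouts was not tested. Macrophage RNA (9 genes, *Lyz2* the most abundant) summed to 73.9 to 112 RPKM in WT, 80.6 to 88.0 in Tie2-Ezh2-KO and 84.6 to 171 in Vav-Ezh2-KO, with *C1qa* at 0 in every library and *Cd68* lower in Tie2-Ezh2-KO than in Vav-Ezh2-KO (log2 change -0.71, limma adjusted p = 0.0333). Of the markers of megakaryocytes, *Gp1ba* was lower in Tie2-Ezh2-KO than in WT (log2 change -0.94, limma adjusted p = 0.0495). Of the 8 tested there, 1 had a log2 change above 0 (median -0.22), and 0 were higher and 2 lower at an unadjusted p under 0.05. Between the knockouts limma called 0 of the 8, with 1 higher and 1 lower unadjusted (median -0.25).

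Most Wnt genes were scarce in EMPs. Of the 58, 38 (65.5%, against 35.6% of all genes) stayed under 1 RPKM in every library, and 15 (25.9%, against 17.5%) never passed 0.2 RPKM. *Dkk2* and *Wnt10a* were at 0 in all 15 libraries. By contrast 6 genes (10.3%, against 48.1%) were at 1 RPKM or more throughout: *Ctnnb1*, *Shisa5*, *Wls*, *Gsk3b*, *Axin1* and *Znrf3*. All 12 ligands stayed under 1 RPKM in every library, and the highest Frizzled and secreted inhibitor genes were *Fzd9* and *Sfrp2*. The plot of RPKM by group shows the 16 members named by rule.

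**Figure D1:**
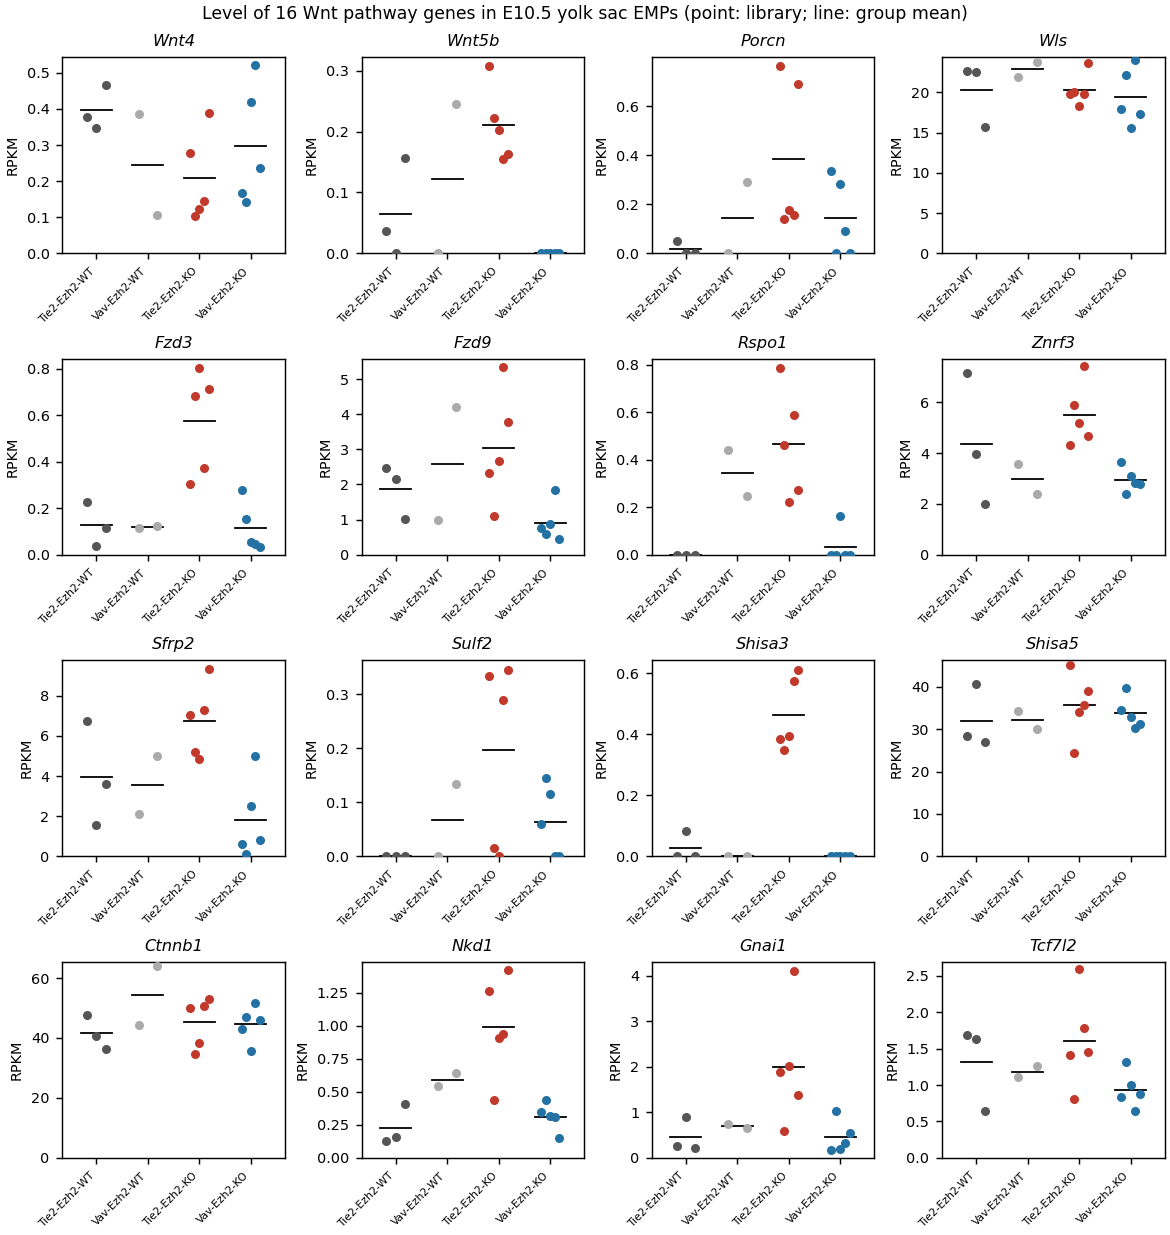
RPKM (y axis, linear from 0) of 16 Wnt genes in each library (points) by group (x axis, controls of each Cre line, then knockouts), with a line at each group's mean. Shisa3 stands at 0.349 to 0.612 RPKM in Tie2-Ezh2-KO and at 0 in Vav-Ezh2-KO, whereas Wls, Shisa5 and Ctnnb1 overlap between groups.

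Deletion with Tie2-Cre was compared with WT by limma on log2(RPKM + 0.2), a scale that understates the change of genes near 0. A gene was tested if any library of the comparison passed 0.2 RPKM, and called at an adjusted p under 0.05 over all genes tested. *Shisa3* and *Fzd3* rose in Tie2-Ezh2-KO. They were 2 of 42 members tested (4.76%), where 2.73% of 14154 genes were called and 2.42% were called higher, and they were also the 2 members whose groups did not overlap, which 3.29% of all genes did in the higher direction. At an unadjusted p under 0.05, 11 members were higher (26.2%, against 8.22% of genes) and 0 lower (against 2.75%); limma-voom on the recovered reads called 2 (against 2.40% of genes) and gave 16 higher (against 8.90%) and 0 lower (against 2.45%) at that level. Without the 2 libraries rich in endoderm RNA, 6 of 41 were higher (14.6%, against 7.37%) and 0 lower unadjusted (against 2.85%), and the same 2 were called (against 1.57%). Leaving out 1 library at a time gave 1 to 3 called, with 1.86% to 3.12% of all genes called in the same fits. The median log2 change was 0.50 over the 42 members and 0.01 over all genes tested. Over the members it was 0.32 with quantile normalization and 0.19 with a pseudocount of 1 (0.77 with 0.05, and 1.06 with limma-voom). The filter bears on the median of 0.50 and on the split between higher and lower members. Through Tie2-Ezh2-KO libraries alone, 10 members passed it, against 1054 of the 14154 genes (*Axin2*, *Dkk3*, *Fzd2*, *Fzd10*, *Notum*, *Sfrp5*, *Shisa3*, *Shisa9*, *Sulf2* and *Tcf7l1*), and 1 member passed through WT alone. With no filter, 54 members with a read gave a median of 0.33, against 0.02 over all genes, with 2 called (against 1.88%), and 16 higher (29.6%, against 7.77%) and 0 lower (against 2.60%) at an unadjusted p under 0.05. A filter on the mean left 28 members with a median of 0.45, against -0.0023 over all genes. Of these, 8 were higher (28.6%, against 7.85%) and 0 lower (against 2.94%) unadjusted. A shift of the group was not tested. The 16 members not tested were *Dkk1*, *Dkk2*, *Dkk4*, *Fzd1*, *Lef1*, *Rspo3*, *Sfrp1*, *Shisa4* and 8 Wnt ligands.

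In Vav-Ezh2-KO against WT, limma called 0 of 35 members tested, where 0.00733% of 13646 genes (1 gene) were called. At an unadjusted p under 0.05, 0 members were higher (against 4.0% of genes) and 2 lower, *Fzd9* and *Sfrp2* (5.71%, against 3.93%), and limma-voom called 0, with 0 higher (against 4.14%) and 3 lower (8.57%, against 4.62%) at that level. Without Vav-Ezh2-KO replicate 28, 0 were lower, and without Vav-Ezh2-WT replicate 6, 0 were lower and 1 was higher. Of 9 visceral endoderm markers tested in this comparison 0 had a log2 change above 0 (median -1.11), with 1 lower unadjusted, as were 2 of 11 endothelial genes (median -0.17), and limma called 0 of either list. The median log2 change was -0.08 over the 35 members and -0.02 over all genes. In Tie2-Ezh2-KO against Vav-Ezh2-KO, which sets the Cre lines side by side, 9 of 42 members were called and all 9 were higher in Tie2-Ezh2-KO (21.4%, where 3.51% of 14120 genes were called and 2.63% called higher). They were *Wnt5b*, *Fzd3*, *Fzd9*, *Rspo1*, *Znrf3*, *Sfrp2*, *Shisa3*, *Nkd1* and *Gnai1*. The groups did not overlap in 6 of the 42 members (14.3%), all among the 9, and in 3.56% of all genes in that direction. The count of called members was 2 to 10 when 1 library was left out, and the share of all genes called moved too. It was 2 without Vav-Ezh2-KO replicate 28 (against 2.27% of genes) and 10 without Tie2-Ezh2-KO replicate 9 (against 6.92%). With quantile normalization it was 4 (against 3.72%). The median was 0.49 over the 42 members and 0.04 over all genes, but 0.30 with no filter, 0.27 with quantile normalization and 0.20 with a pseudocount of 1 (0.70 with 0.05, and 0.88 with limma-voom). The filter bears on these counts, since 12 of the 42 members passed it through Tie2-Ezh2-KO alone, the called *Rspo1*, *Shisa3* and *Wnt5b* among them, against 1108 of the 14120 genes. For such members the filter itself places the highest library in Tie2-Ezh2-KO, which favours a higher level there. With no filter, 5 of 55 members were called, all higher (9.09%, where 2.32% of genes were called and 1.82% called higher).

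The difference between the knockout effects, each taken against the WT of its own Cre line in a fit of all 15 libraries, passed the test for 1 of 43 members, *Rspo1*, where 0.181% of 14394 genes passed. For every other member, a call against WT or between the knockouts is therefore not shown to be particular to 1 Cre line. The median difference was 0.55 over the 43 members and 0.06 over all genes. It was 0.27 over 56 members with no filter, where *Rspo1* and *Shisa3* passed (against 0.0948% of genes). It was 0.28 without Tie2-Ezh2-WT replicate 12, 0.36 with quantile normalization and 0.26 with a pseudocount of 1 (0.65 with 0.05, and 1.06 with limma-voom). With a filter on the mean it was 0.46 (against 0.05 over all genes). Without both libraries rich in endoderm RNA it was 0.72 (against 0.07). A shift of the group was not tested. The plot of log2 changes by role sets the comparisons side by side; both comparisons with WT use the same 5 WT libraries.

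**Figure D2:**
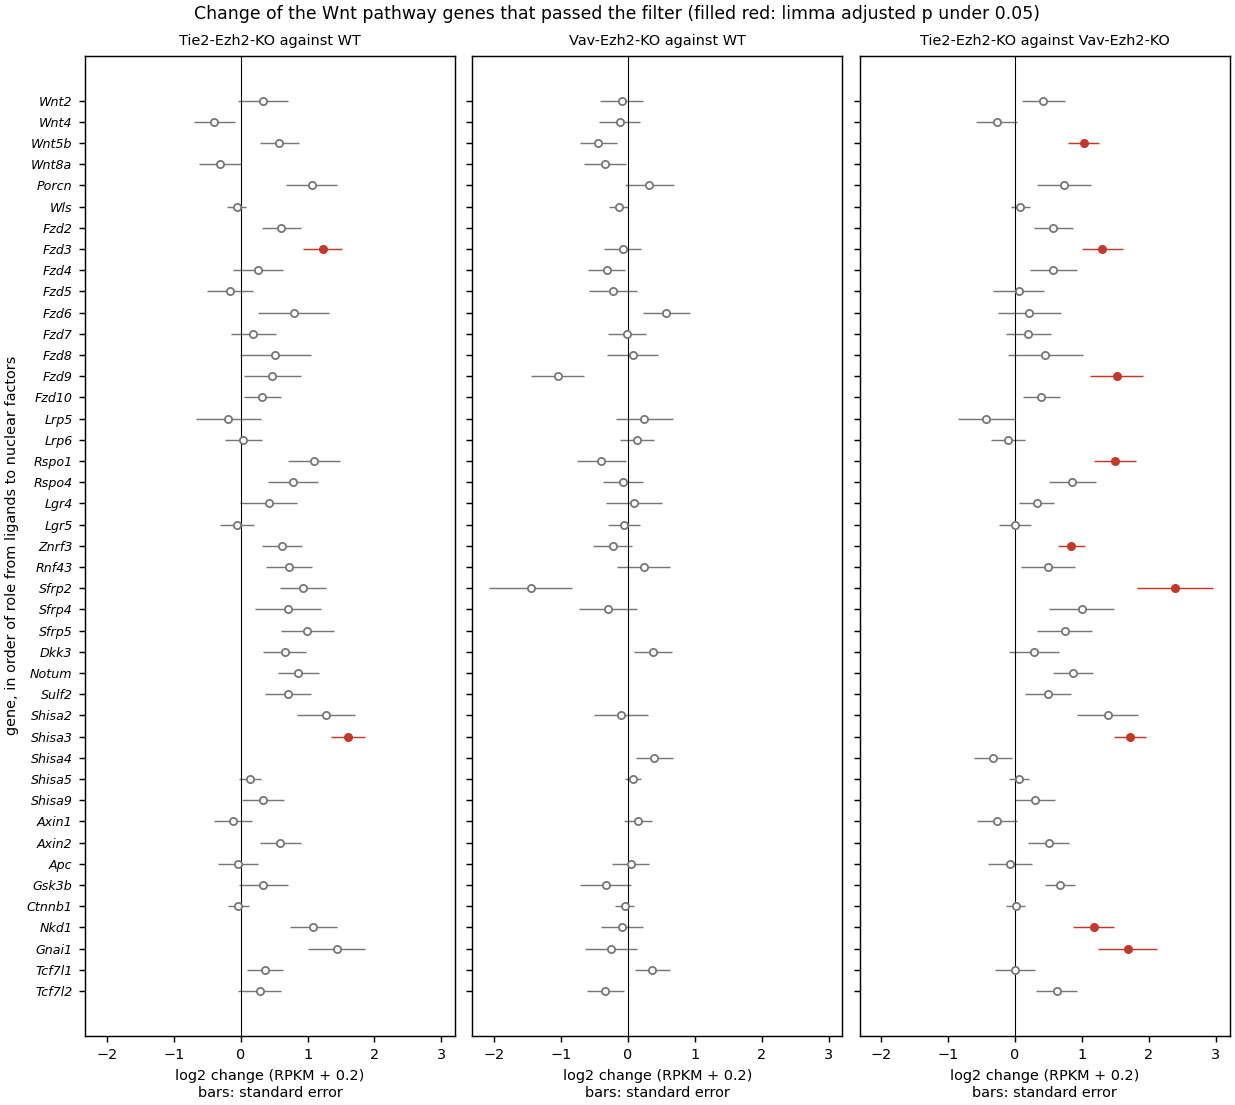
Log2 change on the log2(RPKM + 0.2) scale (x axis, with bars of 1 SE) of each member that passed the filter, ordered by role (y axis), in Tie2-Ezh2-KO against WT, Vav-Ezh2-KO against WT and Tie2-Ezh2-KO against Vav-Ezh2-KO. Filled red points passed the limma test: 2, 0 and 9 members.

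Of the 12 ligands, 4 were tested against WT in Tie2-Ezh2-KO and 0 were called there, with 0 at an unadjusted p under 0.05. *Wnt4*, a ligand known from kidney and gonad development, had the highest mean of the ligands over the 15 libraries, although in Tie2-Ezh2-KO *Wnt5b* averaged 0.210 RPKM against 0.208 RPKM. It was at 0.377, 0.347 and 0.465 RPKM in Tie2-Ezh2-WT replicates 4, 10 and 12 and at 0.386 and 0.105 RPKM in Vav-Ezh2-WT replicates 4 and 6; values below follow this order of replicates, and for the knockouts the order given at the start. In Tie2-Ezh2-KO it was at 0.279, 0.103, 0.124, 0.146 and 0.390 RPKM, and in Vav-Ezh2-KO at 0.167, 0.142, 0.419, 0.523 and 0.237 RPKM. The groups overlapped, and the log2 change was -0.39 ± 0.30 (SE) in Tie2-Ezh2-KO (limma adjusted p = 0.806) and -0.12 in Vav-Ezh2-KO (limma adjusted p = 0.939).

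*Wnt5b*, a ligand mostly of the beta-catenin-independent branch, was at 0 in all 5 Vav-Ezh2-KO libraries. It was at 0.307, 0.222, 0.203, 0.155 and 0.164 RPKM in Tie2-Ezh2-KO, from 13, 9, 8, 11 and 7 reads. WT was mixed, with 0.0362, 0 and 0.156 RPKM in Tie2-Ezh2-WT and 0 and 0.245 RPKM in Vav-Ezh2-WT. All Tie2-Ezh2-KO libraries thus lay above all Vav-Ezh2-KO libraries, and within or above the WT range. *Wnt5b* was at least 19.3-fold higher in Tie2-Ezh2-KO than in Vav-Ezh2-KO, counted against a floor of 3 reads over the Vav-Ezh2-KO group (17.1-fold without Tie2-Ezh2-KO replicate 7). The log2 change was 1.02 ± 0.23 (SE, limma adjusted p = 0.0214, exact permutation p = 0.00794). Against WT the log2 change was 0.58 ± 0.29 (SE; limma adjusted p = 0.519) in Tie2-Ezh2-KO and -0.45 in Vav-Ezh2-KO (limma adjusted p = 0.706). The call between the knockouts was lost without Tie2-Ezh2-KO replicate 7 and without any 1 of the Vav-Ezh2-KO libraries; it was also lost with a pseudocount of 1 and with quantile normalization (adjusted p from 0.00178 to 0.0597 over the alternatives).

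The other 10 ligands (*Wnt2*, *Wnt2b*, *Wnt3*, *Wnt5a*, *Wnt6*, *Wnt8a*, *Wnt8b*, *Wnt9b*, *Wnt10a* and *Wnt10b*) were low, and 8 of them never passed 0.2 RPKM. *Wnt2* averaged 0.0711 RPKM in WT, all of it from Vav-Ezh2-WT replicate 6, 0.134 in Tie2-Ezh2-KO and 0.0333 in Vav-Ezh2-KO, with reads in 2 libraries, and *Wnt8a* reached 0.375 RPKM in Tie2-Ezh2-WT replicate 10. Summed over the 12 ligands, the level was 0.655 ± 0.181 RPKM in WT, 0.682 ± 0.184 RPKM in Tie2-Ezh2-KO and 0.375 ± 0.215 RPKM in Vav-Ezh2-KO (± SD, n = 5 each), and the libraries of all groups overlapped.

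*Porcn*, the acyltransferase that Wnt ligands need to be secreted, had few reads. In WT it was at 0.0507, 0 and 0 RPKM in Tie2-Ezh2-WT and 0 and 0.291 RPKM in Vav-Ezh2-WT. Tie2-Ezh2-KO held 0.761, 0.138, 0.178, 0.157 and 0.688 RPKM, and Vav-Ezh2-KO 0.336, 0, 0.282, 0.0917 and 0 RPKM. Reads were present in all 5 Tie2-Ezh2-KO libraries, and these overlapped WT through Vav-Ezh2-WT replicate 6, and Vav-Ezh2-KO through 2 of its libraries. The log2 change against WT was 1.06 ± 0.38 (SE, limma adjusted p = 0.235, exact permutation p = 0.0397) in Tie2-Ezh2-KO and 0.32 in Vav-Ezh2-KO (limma adjusted p = 0.849).

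*Wls*, the carrier that takes finished ligands to the surface, was in contrast abundant everywhere. It was at 22.7, 22.5 and 15.6 RPKM in Tie2-Ezh2-WT, 22.0 and 23.8 in Vav-Ezh2-WT, 19.8, 20.1, 18.3, 19.8 and 23.7 in Tie2-Ezh2-KO, and 18, 22.2, 15.6, 24.0 and 17.3 RPKM in Vav-Ezh2-KO. All groups overlapped. Neither knockout passed the test against WT, with log2 changes of -0.06 (limma adjusted p = 0.957) and -0.14 (limma adjusted p = 0.842).

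Among the receptors, *Fzd3*, a Frizzled receptor known for planar polarity and axon guidance, was the single called gene of 11 tested in Tie2-Ezh2-KO against WT. It was at 0.226, 0.0397 and 0.117 RPKM in Tie2-Ezh2-WT and at 0.116 and 0.122 RPKM in Vav-Ezh2-WT. In Tie2-Ezh2-KO it was at 0.305, 0.683, 0.805, 0.372 and 0.712 RPKM, from 62 to 152 reads a library. In Vav-Ezh2-KO it was at 0.278, 0.153, 0.0559, 0.0477 and 0.0355 RPKM. Every Tie2-Ezh2-KO library lay above every other library, and Vav-Ezh2-KO overlapped WT.

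*Fzd3* averaged 0.124 ± 0.0665 RPKM in WT, 0.575 ± 0.222 RPKM in Tie2-Ezh2-KO and 0.114 ± 0.103 RPKM in Vav-Ezh2-KO (± SD, n = 5 each). The log2 change was 1.23 ± 0.29 (SE) against WT (limma adjusted p = 0.0352, exact permutation p = 0.00794) and 1.31 ± 0.31 (SE) against Vav-Ezh2-KO (limma adjusted p = 0.0286, exact permutation p = 0.00794), and -0.08 in Vav-Ezh2-KO against WT (limma adjusted p = 0.961). The difference between the knockout effects, 1.31 ± 0.50 (SE), did not pass (limma adjusted p = 0.574). Without the 2 libraries rich in endoderm RNA the change against WT was 1.48 (limma adjusted p = 0.0369). The call against WT held in 12 of 21 alternatives (adjusted p from 0.0146 to 0.196); it was lost with quantile normalization (0.95), with the Tie2-Ezh2-WT libraries as the sole controls (1.23), and without Tie2-Ezh2-WT replicate 10 (1.13) or 12 (1.23), Vav-Ezh2-WT replicate 4 (1.23) or 6 (1.23), or Tie2-Ezh2-KO replicate 9 (1.17), 11 (1.12) or 17 (1.16), values being log2 changes. The call against Vav-Ezh2-KO held in 13 of 19 (adjusted p from 0.00957 to 0.0842) and was lost without Tie2-Ezh2-KO replicate 11 or 17, without Vav-Ezh2-KO replicate 10, 26 or 28, and with quantile normalization.

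*Fzd9*, a Frizzled receptor known from B-cell and hippocampal development, was the most abundant of the receptors with a Frizzled name. It was at 2.46, 2.16 and 1.03 RPKM in Tie2-Ezh2-WT and 0.987 and 4.2 RPKM in Vav-Ezh2-WT. Tie2-Ezh2-KO held 2.32, 1.12, 2.65, 5.34 and 3.77 RPKM, and Vav-Ezh2-KO 0.755, 0.592, 0.872, 1.85 and 0.446 RPKM. Of the 5 Tie2-Ezh2-KO libraries, 4 lay above all Vav-Ezh2-KO libraries, and both knockouts overlapped WT. *Fzd9* was higher in Tie2-Ezh2-KO than in Vav-Ezh2-KO (log2 change 1.52 ± 0.40 SE, limma adjusted p = 0.0482, exact permutation p = 0.0159). Against WT the log2 change was 0.47 in Tie2-Ezh2-KO (limma adjusted p = 0.851) and -1.05 ± 0.39 (SE) in Vav-Ezh2-KO (limma adjusted p = 0.544, exact permutation p = 0.0476). The call held in 7 of 19 alternatives (adjusted p from 0.00897 to 0.126), and among fits without 1 library it held without Tie2-Ezh2-KO replicate 9 or Vav-Ezh2-KO replicate 26 and was lost without each of the others.

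The co-receptors *Lrp5* and *Lrp6* were moderate and level. *Lrp5* averaged 1.94, 1.71 and 2.17 RPKM and *Lrp6* 1.26, 1.28 and 1.38 RPKM in WT, in Tie2-Ezh2-KO and in Vav-Ezh2-KO. Of the other Frizzled genes, *Fzd4* (0.563, 0.777 and 0.401 RPKM), *Fzd6* (0.541, 1.27 and 0.797 RPKM) and *Fzd8* (0.559, 1.12 and 0.629 RPKM) had the highest group means, in the same order, and were not called. *Fzd5* and *Fzd7* averaged 0.166 to 0.295 RPKM. Single libraries weigh on some of these means: without Vav-Ezh2-WT replicate 6, *Fzd6* averaged 0.334 RPKM in WT, and without replicate 17 *Fzd5* averaged 0.105 RPKM in Tie2-Ezh2-KO. *Fzd2* was at 0 in all 5 WT libraries and at 0.156, 0, 0, 0.164 and 0.308 RPKM in Tie2-Ezh2-KO. That was at least 15.5-fold higher against a floor of 3 reads over WT (9.88-fold without replicate 17), without passing the test (limma adjusted p = 0.472). *Fzd10* was at 0.0420, 0, 0, 0.287 and 0.0624 RPKM in Tie2-Ezh2-KO, at 0.0503 RPKM in 1 WT library and at 0 in all other libraries, and *Fzd1* had reads in 1 library, at 0.0681 RPKM.

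R-spondins are secreted proteins that bind Lgr receptors and take the ubiquitin ligases Znrf3 and Rnf43, which remove Frizzled receptors, off the cell surface. *Rspo1* was at 0 in all 3 Tie2-Ezh2-WT libraries and at 0.439 and 0.246 RPKM in Vav-Ezh2-WT. It was at 0.787, 0.464, 0.221, 0.589 and 0.271 RPKM in Tie2-Ezh2-KO, from 23, 13, 6, 29 and 8 reads. In Vav-Ezh2-KO it was at 0.162 RPKM in replicate 10, from 5 reads, and at 0 in the other 4 libraries. Every Tie2-Ezh2-KO library thus lay above every Tie2-Ezh2-WT and every Vav-Ezh2-KO library, and overlapped Vav-Ezh2-WT.

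*Rspo1* averaged 0.137 ± 0.2 RPKM in WT, 0.466 ± 0.233 RPKM in Tie2-Ezh2-KO and 0.0323 ± 0.0723 RPKM in Vav-Ezh2-KO (± SD, n = 5 each). It was higher in Tie2-Ezh2-KO than in Vav-Ezh2-KO (log2 change 1.49 ± 0.31 SE, limma adjusted p = 0.0133, exact permutation p = 0.00794), in all 19 alternatives. Against the pooled WT the log2 change of 1.10 ± 0.39 (SE) did not pass (limma adjusted p = 0.216, exact permutation p = 0.0476), while against Tie2-Ezh2-WT alone it was 1.66 and passed (limma adjusted p = 0.0465; range over the alternatives 0.0465 to 0.612). In Vav-Ezh2-KO it was -0.40 against the pooled WT (limma adjusted p = 0.816) and -1.25 against Vav-Ezh2-WT alone, and passed in 0 of 19 alternatives. The knockout effects, each against the WT of its own line, differed by 2.91 ± 0.48 (SE, limma adjusted p = 0.0219). This difference joins the rise of 1.66 in Tie2-Ezh2-KO and the fall of -1.25 in Vav-Ezh2-KO. It also rests on controls that were at 0 in Tie2-Ezh2-WT and at 0.246 and 0.439 RPKM in Vav-Ezh2-WT. That difference passed in 19 of 24 alternatives (adjusted p from 0.0120 to 0.116) and was lost without Tie2-Ezh2-WT replicate 10 (2.91) or 12 (2.91), without Vav-Ezh2-WT replicate 4 (2.65) or 6 (3.17), and without both libraries rich in endoderm RNA (2.75, limma adjusted p = 0.0564).

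*Znrf3* was at 7.16, 3.98 and 1.98 RPKM in Tie2-Ezh2-WT and 3.58 and 2.40 RPKM in Vav-Ezh2-WT. It was at 4.33, 5.87, 5.18, 7.44 and 4.68 RPKM in Tie2-Ezh2-KO and at 3.64, 2.39, 3.11, 2.83 and 2.79 RPKM in Vav-Ezh2-KO. Every Tie2-Ezh2-KO library lay above every Vav-Ezh2-KO library, and the highest WT value was that of Tie2-Ezh2-WT replicate 4. *Znrf3* was higher in Tie2-Ezh2-KO than in Vav-Ezh2-KO (log2 change 0.84 ± 0.21 SE, limma adjusted p = 0.0361, exact permutation p = 0.00794), but not past the test against WT (0.61 ± 0.30 SE, limma adjusted p = 0.494; 0.94 without the 2 libraries rich in endoderm RNA, limma adjusted p = 0.151), nor in Vav-Ezh2-KO against WT (-0.23, limma adjusted p = 0.861). The call held in 10 of 19 alternatives (adjusted p from 0.0192 to 0.0925), and among fits without 1 library it held without Tie2-Ezh2-KO replicate 7 or 9 or Vav-Ezh2-KO replicate 1 and was lost without each of the others. *Rnf43* averaged 0.302, 0.624 and 0.455 RPKM, the receptor *Lgr4* 1.24, 1.42 and 1.11 and *Lgr5* 0.250, 0.231 and 0.230 RPKM in WT, in Tie2-Ezh2-KO and in Vav-Ezh2-KO. *Rspo4* averaged 0.0552, 0.258 and 0.0338 RPKM and *Rspo3* 0.0366, 0.0688 and 0.0118 RPKM in the same order. In WT and in Vav-Ezh2-KO, 2 libraries of each held *Rspo4* reads and 1 held *Rspo3* reads. Without Vav-Ezh2-WT replicate 4, *Rspo4* averaged 0.00528 RPKM in WT. Without replicate 28, *Rspo4* averaged 0.00916 RPKM and *Rnf43* 0.280 RPKM in Vav-Ezh2-KO.

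*Sfrp2*, a secreted Frizzled-related protein that binds Wnt ligands, was the most abundant secreted modulator. It was at 6.72, 1.55 and 3.61 RPKM in Tie2-Ezh2-WT and 2.11 and 4.98 RPKM in Vav-Ezh2-WT. Tie2-Ezh2-KO held 7.06, 5.20, 4.86, 7.28 and 9.32 RPKM. Vav-Ezh2-KO held 0.602, 0.109, 2.52, 4.99 and 0.835 RPKM, the 0.109 from 4 reads. Of 5 Tie2-Ezh2-KO libraries, 4 lay above all Vav-Ezh2-KO libraries, among which replicate 26 was the highest and inside the Tie2-Ezh2-KO range.

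*Sfrp2* averaged 3.79 ± 2.11 RPKM in WT, 6.74 ± 1.80 RPKM in Tie2-Ezh2-KO and 1.81 ± 2.0 RPKM in Vav-Ezh2-KO (± SD, n = 5 each). It was higher in Tie2-Ezh2-KO than in Vav-Ezh2-KO (log2 change 2.39 ± 0.57 SE, limma adjusted p = 0.0307, exact permutation p = 0.0159). Against WT, the log2 changes of 0.93 ± 0.34 (SE, limma adjusted p = 0.239, exact permutation p = 0.0397) in Tie2-Ezh2-KO and -1.45 ± 0.62 (SE, limma adjusted p = 0.612, exact permutation p = 0.119) in Vav-Ezh2-KO had opposite signs and did not pass. Their difference against own-line WT was 2.34 (limma adjusted p = 0.670). The call held in 11 of 19 alternatives (adjusted p from 0.00442 to 0.0827), and among fits without 1 library it held without Tie2-Ezh2-KO replicate 9 or Vav-Ezh2-KO replicate 9, 10 or 26 and was lost without each of the others.

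*Sulf2*, an enzyme that trims heparan sulfate and so alters how Wnt ligands are held at the surface, was at 0 in 4 WT libraries and at 0.133 RPKM in Vav-Ezh2-WT replicate 6. In Tie2-Ezh2-KO it was at 0.334, 0.0158, 0, 0.289 and 0.346 RPKM, and in Vav-Ezh2-KO at 0.0600, 0.145, 0.115, 0 and 0 RPKM. In 3 Tie2-Ezh2-KO libraries it was above all other libraries, and in the remaining 2 it was within the range of WT. The log2 change against WT was 0.71 ± 0.34 (SE, limma adjusted p = 0.494, exact permutation p = 0.0873), and *Sulf2* was not tested in Vav-Ezh2-KO against WT, where no library passed 0.2 RPKM.

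Other secreted inhibitors were near 0 in WT. *Notum*, which removes the lipid from Wnt ligands, was at 0 in all WT and Vav-Ezh2-KO libraries and at 0.311, 0.389, 0.100, 0 and 0.154 RPKM in Tie2-Ezh2-KO. It was at least 13.1-fold higher than in WT and 13.3-fold higher than in Vav-Ezh2-KO against floors of 3 reads over each group (9.70-fold and 9.86-fold without replicate 9). It did not pass the test (log2 change 0.86 in both, limma adjusted p = 0.2 and 0.138). *Sfrp5* was at 0 in WT, at 0.231, 0, 0, 0.785 and 0.392 RPKM in Tie2-Ezh2-KO and at 0.156 RPKM or less in Vav-Ezh2-KO. In Tie2-Ezh2-KO it was at least 18.2-fold higher than in WT by the same floor (10.1-fold without replicate 13), and did not pass the test (limma adjusted p = 0.312). *Sfrp4* averaged 0.159, 0.413 and 0.0988 RPKM and *Dkk3* 0.00572, 0.158 and 0.0845 RPKM in WT, in Tie2-Ezh2-KO and in Vav-Ezh2-KO. The *Sfrp4* mean of WT was 0.0623 RPKM without Tie2-Ezh2-WT replicate 4 and that of Vav-Ezh2-KO came from 1 library, while *Dkk3* averaged 0.0857 RPKM in Tie2-Ezh2-KO without replicate 7, with reads in 3 of 5 libraries. *Sfrp1* never passed 0.128 RPKM and *Dkk1* never passed 0.0302 RPKM, and *Dkk4* had reads in 1 library, at 0.135 RPKM.

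*Shisa3*, which encodes a protein of the endoplasmic reticulum known to hold back immature Frizzled and fibroblast growth factor receptors, had the smallest adjusted p of the members tested in Tie2-Ezh2-KO against WT. It was at 0 in 4 WT libraries and at 0.0842 RPKM, from 5 reads, in Tie2-Ezh2-WT replicate 10. Tie2-Ezh2-KO held 0.384, 0.349, 0.395, 0.576 and 0.612 RPKM, from 23, 20, 22, 58 and 37 reads. In Vav-Ezh2-KO all 5 libraries were at 0. No Tie2-Ezh2-KO library overlapped any other library.

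*Shisa3* averaged 0.463 ± 0.121 RPKM in Tie2-Ezh2-KO against 0.0168 ± 0.0377 RPKM in WT (± SD, n = 5 each). It was at least 60.2-fold higher in Tie2-Ezh2-KO than in Vav-Ezh2-KO by the floor of 3 reads over the group (55.3-fold without Tie2-Ezh2-KO replicate 17). The log2 change was 1.61 ± 0.25 (SE) against WT (limma adjusted p = 0.00222, exact permutation p = 0.00794) and 1.71 ± 0.24 (SE) against Vav-Ezh2-KO (limma adjusted p = 0.000813, exact permutation p = 0.00794). The call against WT held in all 21 alternatives (adjusted p from 8.7e-05 to 0.0405), with a log2 change of 1.63 (limma adjusted p = 0.0186) without the 2 libraries rich in endoderm RNA, and the call against Vav-Ezh2-KO in all 19. *Shisa3* was not tested in Vav-Ezh2-KO against WT, where it never passed 0.2 RPKM. The difference between the knockout effects was 1.54 ± 0.37 (SE, limma adjusted p = 0.132; 0.0222 to 0.390 over the alternatives).

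*Shisa5*, a relative known as an apoptosis-linked protein of the same compartment, was the most abundant Shisa gene. It was at 28.4, 40.5 and 27.0 RPKM in Tie2-Ezh2-WT, 34.2 and 30.0 in Vav-Ezh2-WT, 45.2, 24.4, 34.0, 35.7 and 38.9 in Tie2-Ezh2-KO, and 34.5, 39.7, 32.9, 30.2 and 31.2 RPKM in Vav-Ezh2-KO. The groups overlapped (log2 change 0.14 in Tie2-Ezh2-KO against WT, limma adjusted p = 0.896, exact permutation p = 0.452). *Shisa2* averaged 0.294 RPKM in WT, 1.06 in Tie2-Ezh2-KO and 0.275 in Vav-Ezh2-KO (0.171 without replicate 26), with log2 changes of 1.28 against WT and 1.38 against Vav-Ezh2-KO that did not pass (limma adjusted p = 0.184 and 0.118), except when Tie2-Ezh2-KO replicate 9 was left out (1.64 and 1.74, limma adjusted p = 0.0277 and 0.0180). *Shisa4* and *Shisa9* reached 0.219 and 0.272 RPKM at most.

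*Ctnnb1*, which encodes beta-catenin, was the most abundant member. It was at 47.7, 40.8 and 36.4 RPKM in Tie2-Ezh2-WT, 44.5 and 64.0 in Vav-Ezh2-WT, 50, 34.6, 38.4, 50.8 and 52.9 in Tie2-Ezh2-KO, and 43.0, 47.1, 35.7, 51.8 and 46.0 RPKM in Vav-Ezh2-KO. The groups overlapped, and the log2 change in Tie2-Ezh2-KO was -0.03 (limma adjusted p = 0.980, exact permutation p = 0.865), a sign that some alternatives turned. *Axin1* averaged 8.33, 8.24 and 9.47 RPKM, *Apc* 0.516, 0.525 and 0.566 and *Gsk3b* 10.8, 11.6 and 7.36 RPKM in WT, in Tie2-Ezh2-KO and in Vav-Ezh2-KO. Of these, *Gsk3b* passed between the knockouts when Vav-Ezh2-KO replicate 1 was left out (log2 change 0.87, limma adjusted p = 0.0308), and with all libraries did not (0.67, limma adjusted p = 0.124). *Axin2*, a feedback inhibitor that is also a target of the pathway, averaged 0.0439 (0.0154 without Vav-Ezh2-WT replicate 4), 0.183 and 0.0586 RPKM (limma adjusted p = 0.560 in Tie2-Ezh2-KO against WT).

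*Nkd1*, a feedback inhibitor that binds Dishevelled, was at 0.129, 0.156 and 0.405 RPKM in Tie2-Ezh2-WT and 0.542 and 0.641 RPKM in Vav-Ezh2-WT. It was at 1.27, 0.440, 0.908, 0.936 and 1.42 RPKM in Tie2-Ezh2-KO and at 0.349, 0.438, 0.319, 0.312 and 0.148 RPKM in Vav-Ezh2-KO. In Tie2-Ezh2-KO 4 libraries lay above all others, and replicate 9 lay within the WT range and just above the highest Vav-Ezh2-KO library. *Nkd1* averaged 0.375 ± 0.228 RPKM in WT, 0.995 ± 0.379 RPKM in Tie2-Ezh2-KO and 0.313 ± 0.105 RPKM in Vav-Ezh2-KO (± SD, n = 5 each). It passed at the threshold against Vav-Ezh2-KO (log2 change 1.18 ± 0.31 SE, limma adjusted p = 0.04999, exact permutation p = 0.00794), and did not pass against WT (1.09 ± 0.36 SE, limma adjusted p = 0.159, exact permutation p = 0.0238). The call held in 7 of 19 alternatives (adjusted p from 0.0126 to 0.132), and among fits without 1 library it held without Tie2-Ezh2-KO replicate 9 alone. The difference between the knockout effects was 2.11 ± 0.52 (SE, limma adjusted p = 0.153).

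*Gnai1*, an inhibitory G-protein subunit that couples Frizzled and other receptors to signalling, was at 0.271, 0.891 and 0.221 RPKM in Tie2-Ezh2-WT and 0.736 and 0.659 RPKM in Vav-Ezh2-WT. Tie2-Ezh2-KO held 1.89, 0.594, 2.01, 4.11 and 1.38 RPKM, and Vav-Ezh2-KO 0.166, 1.04, 0.204, 0.327 and 0.556 RPKM. Again 4 Tie2-Ezh2-KO libraries lay above all others, and replicate 9 was inside the range of the other groups. *Gnai1* averaged 0.556 ± 0.295 RPKM in WT, 2.0 ± 1.31 RPKM in Tie2-Ezh2-KO and 0.458 ± 0.358 RPKM in Vav-Ezh2-KO (± SD, n = 5 each). It was higher than in Vav-Ezh2-KO (log2 change 1.68 ± 0.44 SE, limma adjusted p = 0.0496, exact permutation p = 0.0159), a call held in 5 of 19 alternatives (adjusted p from 0.00995 to 0.120) and, among fits without 1 library, without Tie2-Ezh2-KO replicate 9 or Vav-Ezh2-KO replicate 9. Against WT it did not pass (1.43 ± 0.43 SE, limma adjusted p = 0.107, exact permutation p = 0.0317), except when Tie2-Ezh2-KO replicate 9 was left out (1.75, limma adjusted p = 0.0243, with 0.0243 to 0.361 over the alternatives).

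Of the nuclear factors, *Tcf7l2*, a DNA-binding partner of beta-catenin, was at 1.69, 1.63 and 0.642 RPKM in Tie2-Ezh2-WT, 1.11 and 1.25 in Vav-Ezh2-WT, 1.41, 0.805, 2.59, 1.78 and 1.45 in Tie2-Ezh2-KO, and 0.832, 1.31, 1.0, 0.649 and 0.880 RPKM in Vav-Ezh2-KO. The groups overlapped, with a log2 change of 0.28 in Tie2-Ezh2-KO against WT (limma adjusted p = 0.896) and 0.62 against Vav-Ezh2-KO (limma adjusted p = 0.329, exact permutation p = 0.0635). *Tcf7l1* averaged 0.0208, 0.0957 and 0.0931 RPKM in WT, in Tie2-Ezh2-KO and in Vav-Ezh2-KO, and *Lef1* was at 0 in 14 of 15 libraries and at 0.0707 RPKM in Vav-Ezh2-KO replicate 26.

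More members had at least 1 read in Tie2-Ezh2-KO. With every library scaled down to the 10407398 reads of the shallowest, the expected number of the 58 members with a read was 32.0, 29.6 and 32.7 in Tie2-Ezh2-WT and 29.4 and 35.4 in Vav-Ezh2-WT. It was 42.8, 35.1, 38.0, 43.5 and 43.2 in Tie2-Ezh2-KO and 31.3, 31.6, 35.1, 32.7 and 27.2 in Vav-Ezh2-KO. Replicate 9 was the lowest Tie2-Ezh2-KO library and overlapped the others. The mean was 31.8 ± 2.47 members in WT, 40.5 ± 3.78 members in Tie2-Ezh2-KO and 31.6 ± 2.87 members in Vav-Ezh2-KO (± SD, n = 5 each). Over all genes of the table the same quantity averaged 13156, 13624 and 13174 genes.

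**Figure D3:**
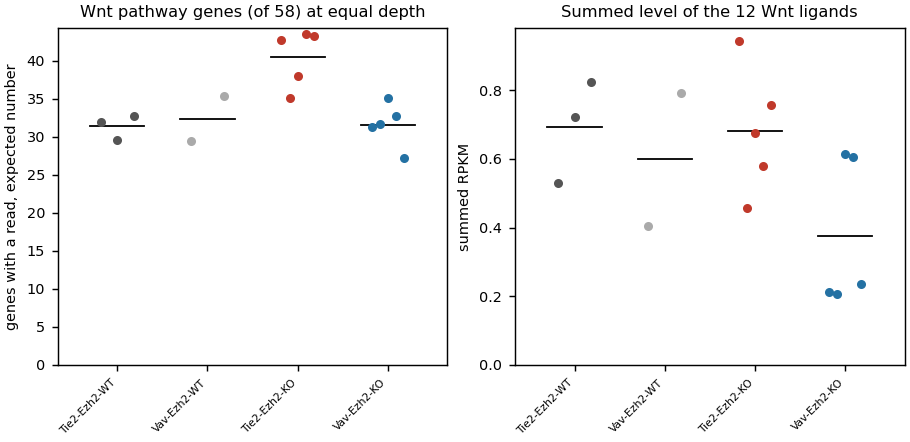
Left, expected number of the 58 members with at least 1 read at 10407398 reads (y axis) in each library (points) by group (x axis). Right, summed RPKM of the 12 ligands in the same libraries, with a line at the mean of each group in both panels. Tie2-Ezh2-KO libraries range from 35.1 to 43.5 members and WT libraries from 29.4 to 35.4.

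Genes of the pathway outside the 58 were read from 6 lists holding 99 genes, 89 of them in the table. Of 68 tested in Tie2-Ezh2-KO against WT, 7 rose and 0 fell, where 2.42% of all genes tested were called higher, with a median log2 change of 0.06 over the lists and 0.01 over all genes; with no filter, 5 of 88 were called (against 1.73% of genes called higher). Of 20 known transcriptional targets of beta-catenin in the table, 14 were tested and 5 rose (*Ascl2*, *Ccnd1*, *Ephb2*, *Msx2* and *Tnfrsf19*). Unadjusted, 9 were higher (against 8.22% of all genes) and 1 was lower (against 2.75%). The filter bears on their median of 0.88, since 4 of the 14 (*Ephb2*, *Fgf4*, *Jag1* and *Msx2*) passed it through Tie2-Ezh2-KO alone. A shift of the list was not tested. With no filter, all 20 gave a median of 0.45, and 4 were called, without *Tnfrsf19*. Of 15 core intracellular components tested, limma called 0 (1 higher and 0 lower at an unadjusted p under 0.05), with a median of -0.03. It called 0 of 13 nuclear cofactors and repressors (2 higher and 1 lower unadjusted, median -0.0021) and 0 of 9 secretion and acylation partners (0 unadjusted, median -0.07). Of 9 other receptors and planar polarity genes *Ryk* rose (median 0.38), and of 8 other extracellular modulators *Dkkl1* rose (median 0.39). Of the receptors, *Celsr2* and *Ror1* passed the filter through Tie2-Ezh2-KO alone. With no filter *Ryk* was called again and *Dkkl1* was not, and the medians of their lists were 0.26 and 0.15.

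In Vav-Ezh2-KO against WT, limma called 0 of 63 pathway genes tested (1 higher and 4 lower at an unadjusted p under 0.05), and the targets had a median of -0.09 (0.01 with no filter). In Tie2-Ezh2-KO against Vav-Ezh2-KO, 7 of 67 were higher (against 2.63% of all genes) and 0 lower: *Ryk*, *Tcf7* and the targets *Ascl2*, *Ccnd1*, *Id2*, *Msx2* and *Nkd2*, the targets having a median of 0.80 (0.33 with no filter). The filter bears on these values, since 8 of the 67 passed it through Tie2-Ezh2-KO alone, which favours a higher level there. Among them were 4 of the 14 targets (*Fgf4*, *Jag1*, *Msx2* and *Nkd2*). With no filter 6 of 87 were called, all higher (against 1.82% of genes called higher), without *Tcf7*. The difference between the knockout effects passed for 1 of 68, *Msx2*, where 0.181% of all genes passed. *Msx2* passed the filter through Tie2-Ezh2-KO alone.

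*Ryk*, a Wnt receptor of the receptor tyrosine kinase family that lacks kinase activity, was at 3.18, 3.16 and 2.67 RPKM in Tie2-Ezh2-WT, 3.27 and 3.11 in Vav-Ezh2-WT, 7.88, 6.15, 5.64, 7.37 and 6.64 in Tie2-Ezh2-KO, and 4.27, 3.44, 4.12, 4.87 and 3.29 RPKM in Vav-Ezh2-KO. With the controls pooled as WT, no group overlapped another. *Ryk* rose in Tie2-Ezh2-KO against WT (log2 change 1.07 ± 0.18 SE, limma adjusted p = 0.00371), while the log2 change of 0.35 in Vav-Ezh2-KO did not pass (limma adjusted p = 0.657, exact permutation p = 0.00794).

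*Ascl2*, a transcription factor of intestinal stem cells and trophoblast, was at 1.19, 1.14 and 0.862 RPKM in Tie2-Ezh2-WT, 0.0833 and 1.37 in Vav-Ezh2-WT, 11.6, 4.51, 6.53, 9.92 and 9.91 in Tie2-Ezh2-KO, and 1.05, 1.58, 0.957, 1.73 and 0.518 RPKM in Vav-Ezh2-KO. All Tie2-Ezh2-KO libraries lay above all others. It rose by 3.08 ± 0.43 (SE) on the log2 scale against WT (limma adjusted p = 0.000875).

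*Msx2*, a homeobox factor of bone and limb development, was at 1.68, 0.938, 1.44, 0.914 and 1.18 RPKM in Tie2-Ezh2-KO and at 0.137 RPKM or less elsewhere. It was at 0 in 4 of 5 WT libraries and in 2 of 5 Vav-Ezh2-KO libraries. The Tie2-Ezh2-KO libraries did not overlap the others, and *Msx2* rose by 2.70 ± 0.27 (SE) on the log2 scale against WT (limma adjusted p = 9.7e-05), with a difference between the knockout effects of 2.76 ± 0.43 (SE, limma adjusted p = 0.0156). *Ccnd1*, a cyclin of the G1 phase, averaged 0.728 ± 0.243 RPKM in WT, 2.31 ± 0.396 RPKM in Tie2-Ezh2-KO and 0.510 ± 0.482 RPKM in Vav-Ezh2-KO (± SD, n = 5 each), and rose by 1.46 on the log2 scale against WT (limma adjusted p = 0.0074).

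Promoter sequence was looked at because 9 members were higher together in Tie2-Ezh2-KO than in Vav-Ezh2-KO. RefSeq windows of GRCm38.p6, 300 bases around a gene's start, matched 37 of the 58 members, with 50 windows. The letters CTTTGAT, which a Tcf or Lef factor can bind, or ATCAAAG on the other strand, were in a window of 1 member, *Wnt5b* (2.70%), against 3.13% of 12521 genes of the table with a window. Of the 9 members higher between the knockouts 7 had a window, 1 of them (14.3%) with the motif. That gene was again *Wnt5b*, whose other windows, among them chr6:119544298-119544597 (47 CG pairs), lack the motif. Over these 7 genes the median number of CG pairs, with 1 value a gene, was 29. The median number of CG pairs, with 1 value a gene and not over all windows, was 26 over members and 20 over those genes. A match is a description of the letters and not a bound site. Windows of the called members *Shisa3* (chr5:67607633-67607932, plus strand, 28 CG pairs) and *Rspo1* (chr4:124986180-124986479, plus strand, 29 CG pairs) are shown, with CG pairs in capitals, since these members were called in all alternatives between the knockouts and their windows lack the motif. The window of *Wnt5b* that holds the motif (chr6:119449337-119449636, minus strand, 7 CG pairs) is shown with CTTTGAT in capitals. All are 5′ to 3′ on the strand of the gene.
Shisa3: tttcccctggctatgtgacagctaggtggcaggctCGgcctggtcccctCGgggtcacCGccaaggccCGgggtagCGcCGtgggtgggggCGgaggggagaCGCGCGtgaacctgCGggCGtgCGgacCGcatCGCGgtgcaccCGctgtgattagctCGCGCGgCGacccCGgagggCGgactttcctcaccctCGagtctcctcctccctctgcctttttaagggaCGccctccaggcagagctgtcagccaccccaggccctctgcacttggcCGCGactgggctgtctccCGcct
Rspo1: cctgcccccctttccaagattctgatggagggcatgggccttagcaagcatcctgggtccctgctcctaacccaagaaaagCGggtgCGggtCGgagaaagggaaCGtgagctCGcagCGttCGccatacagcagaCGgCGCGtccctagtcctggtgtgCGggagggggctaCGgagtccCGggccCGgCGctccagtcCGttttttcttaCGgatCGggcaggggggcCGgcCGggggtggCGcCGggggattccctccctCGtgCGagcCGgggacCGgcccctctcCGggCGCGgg
Wnt5b: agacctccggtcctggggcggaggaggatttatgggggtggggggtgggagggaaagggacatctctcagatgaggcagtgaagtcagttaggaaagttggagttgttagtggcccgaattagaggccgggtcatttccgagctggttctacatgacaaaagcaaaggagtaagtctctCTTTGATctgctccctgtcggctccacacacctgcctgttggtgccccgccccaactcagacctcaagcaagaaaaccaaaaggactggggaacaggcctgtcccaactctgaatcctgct

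These values carry limits beside those given above. Several of the members that moved lay under 1 RPKM, where a library holds few reads, so a level of 0 sets only an upper bound. Whole-gene levels show neither protein nor pathway activity, and a secreted ligand made by neighbouring yolk sac cells would not appear in sorted EMPs. The WT group is small, joins the controls of both Cre lines and holds 1 of the libraries rich in endoderm RNA. The Tie2-Ezh2-KO libraries also held more primitive erythroid RNA, and its part in these levels was not tested.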

How the data were processed

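RNA sequencing was measured in 15 libraries. The authors aligned reads to GRCm38 (mm10) with TopHat2 2.0.13, counted them over genes with featureCounts and deposited RPKM values. Whole reads were recovered from the steps between the RPKM values of each library (16877 genes above 0, tolerance 1e-05 reads). Of these, 2270 genes, 9 of them members, had reads in 3 or fewer libraries, which leaves few values to fix a count from. Read numbers are not given for those members, but the expected numbers of members with a read include them. limma 3.58.1 in R 4.3.3 was fitted with an intensity trend to log2(RPKM + 0.2) of genes that passed 0.2 RPKM in any library fitted, and p-values were adjusted over all genes tested (Benjamini-Hochberg, threshold 0.05, two-sided). Tie2-Ezh2-KO and Vav-Ezh2-KO were each compared with the 5 pooled WT libraries and with each other, and the difference of the knockout effects used all 15 libraries with the controls kept by Cre line. Exact permutation tests (two-sided) used all 252 divisions of 5 and 5 libraries. Tables and plots were made with Python 3.11.15, numpy 2.4.6, pandas 2.3.3 and matplotlib 3.10.9.

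The members named are the 9 called in the 3 comparisons or in the difference of the knockout effects with the settings above, the 6 that the paper singles out and the highest of each of the 8 roles, 16 in all; other members and pathway genes given with values were chosen after their values were seen. The members and gene lists (6 pathway lists, and markers of EMPs, endothelium, visceral endoderm, mesenchyme, primitive erythroid cells, macrophages and megakaryocytes) were chosen with earlier results of these data known, and the lists' roles and the CG count after seeing the data. Alternatives were the pseudocount, the filter, eBayes without trend, quantile normalization, a common median, limma-voom on recovered reads, a fit of all 15 libraries, WT of the same Cre line and leaving out each library; the fit without the 2 libraries rich in endoderm RNA was chosen after seeing the data. No paired analysis was possible because knockout and control libraries share fewer than 2 replicate numbers and the labels give no pairs. The summed level of the megakaryocyte markers is not reported here.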

Additional observations from a re-analysis of the deposited data

Results flagged for a closer look

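In 51 groups of 5 libraries looked at, 6 values, from 4 libraries, stood far from the rest of their group. The gap on the log2 scale was above Dixon's critical value, and chance sets apart about 1 in 20 groups. That rate does not apply to *Sulf2* and *Shisa3* in WT and *Rspo1* in Vav-Ezh2-KO. There every other library of the group was at 0, so any reads would stand apart. In WT, Vav-Ezh2-WT replicate 6 had the lowest *Wnt4* level, 0.105 RPKM, and the highest *Porcn* level, 0.291 RPKM, and was the single library with *Sulf2* reads, at 0.133 RPKM. Tie2-Ezh2-WT replicate 12 had the lowest *Wls* level in WT, 15.6 RPKM. Tie2-Ezh2-WT replicate 10 was the single WT library with *Shisa3* reads, at 0.0842 RPKM, and Vav-Ezh2-KO replicate 10 the single library of its group with *Rspo1* reads, at 0.162 RPKM. The effect of the knockout on *Rspo1*, taken against the WT of each Cre line, differed between the lines by 2.91 on the log2 scale (limma adjusted p = 0.0219). It was 1.66 in Tie2-Ezh2-KO and -1.25 in Vav-Ezh2-KO.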

How the results depend on the processing

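The number of called members in Tie2-Ezh2-KO against WT, 2, was 1 with quantile normalization and 1 to 3 with 1 library left out: 1 without Tie2-Ezh2-WT replicate 10 or 12, Vav-Ezh2-WT replicate 4 or 6, or Tie2-Ezh2-KO replicate 11 or 17, and 3 without Tie2-Ezh2-KO replicate 9. Without the 2 libraries rich in endoderm RNA it was 2. In Vav-Ezh2-KO against WT limma called 0 in all 20 alternatives (against 0.0151% of genes or less). In Tie2-Ezh2-KO against Vav-Ezh2-KO, 9 became 5 with no filter, 4 with quantile normalization and 2 to 10 with 1 library left out: 4 without Tie2-Ezh2-KO replicate 7 or 13 or Vav-Ezh2-KO replicate 26, 3 without Tie2-Ezh2-KO replicate 11 or 17 or Vav-Ezh2-KO replicate 10, 5 without Vav-Ezh2-KO replicate 1 or 9, 2 without Vav-Ezh2-KO replicate 28, and 10 without Tie2-Ezh2-KO replicate 9. For the difference of the knockout effects, 1 became 2 with no filter or without trend, 0 without both libraries rich in endoderm RNA, and 0 to 1 with 1 library left out (0 without Tie2-Ezh2-WT replicate 10 or 12 or Vav-Ezh2-WT replicate 4 or 6). The share of all genes called moved as well. With 1 library left out it ran from 1.86% to 3.12% in Tie2-Ezh2-KO against WT and from 2.27% to 6.92% between the knockouts. For the difference of the knockout effects it ran from 0.0557% to 0.224%. With quantile normalization these shares were 2.40%, 3.72% and 0.0834%, and with no filter 1.88%, 2.32% and 0.0948%. Fits with fewer libraries have fewer degrees of freedom. Otherwise the cause was not tested. Quantile normalization moved the share of called genes that were higher from 75.2% to 63.6% between the knockouts and from 88.5% to 75% for the difference of their effects.

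The log2 change of *Ezh2* in Tie2-Ezh2-KO against WT did not pass without trend (-0.48), with a common median (-0.46), with limma-voom (-0.46), against WT of the same Cre line (-0.39) or without the 2 libraries rich in endoderm RNA (-0.50). With 1 library left out it ranged from -0.56 to -0.45, and did not pass without Tie2-Ezh2-WT replicate 4 (-0.49) or 10 (-0.47), Vav-Ezh2-WT replicate 4 (-0.45) or 6 (-0.45), or Tie2-Ezh2-KO replicate 7 (-0.49), 11 (-0.45) or 17 (-0.48).

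Of 1291 values of the 16 named members under alternatives, 1176 kept direction and side of the threshold, 83 no longer passed, 4 newly passed and 28 turned sign, 0 of them past the threshold. Outside the 16, *Shisa2* newly passed without Tie2-Ezh2-KO replicate 9 against WT (1.64) and against Vav-Ezh2-KO (1.74), and *Gsk3b* between the knockouts without Vav-Ezh2-KO replicate 1 (0.87). In Tie2-Ezh2-KO against WT, own-line WT turned *Wls* (0.0166) and *Ctnnb1* (0.112), and *Ctnnb1* ran from -0.117 to 0.0859 with 1 library left out, turning without Vav-Ezh2-WT replicate 6 (0.0859) or Tie2-Ezh2-KO replicate 9 (0.0577) or 11 (0.02). In Vav-Ezh2-KO against WT, own-line WT turned *Wnt4* (0.172) and *Porcn* (-0.00044) and a common median *Ctnnb1* (0.00508). With 1 library left out, *Fzd3* ran from -0.242 to 0.0280 (turning without Tie2-Ezh2-WT replicate 4, 0.0280, or Vav-Ezh2-KO replicate 28, 0.0131), *Znrf3* from -0.416 to 0.0225 (without Tie2-Ezh2-WT replicate 4), *Ctnnb1* from -0.128 to 0.0753 (Vav-Ezh2-WT replicate 6, 0.0753; Vav-Ezh2-KO replicate 10, 0.0328) and *Nkd1* from -0.265 to 0.0733 (Vav-Ezh2-WT replicate 4, 0.0284, or 6, 0.0733; Vav-Ezh2-KO replicate 28, 0.0441). Between the knockouts, *Ctnnb1* turned with quantile normalization (-0.00223) and a common median (-0.0116) and ran from -0.067 to 0.103 with 1 library left out, turning without Tie2-Ezh2-KO replicate 7 (-0.0294), 13 (-0.0352) or 17 (-0.0498) or Vav-Ezh2-KO replicate 1 (-0.00077) or 10 (-0.067), and *Shisa5* from -0.033 (without Tie2-Ezh2-KO replicate 7) to 0.188. The difference of the knockout effects for *Shisa5* was -0.0798 without both libraries rich in endoderm RNA and ran from -0.0236 to 0.268 with 1 left out, turning without Tie2-Ezh2-WT replicate 12 (-0.0236), Vav-Ezh2-WT replicate 4 (-0.0077) or Tie2-Ezh2-KO replicate 7 (-0.0069). Some alternatives gave no value where a member failed the filter, among them *Wnt5b* and *Sulf2* with a filter on the mean.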
